A study of Arabidopsis thaliana with 6 samples.

Results

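The plastid genome of Arabidopsis thaliana encodes core subunits of the thylakoid complexes and the large subunit of Rubisco. The probe sets described here were taken by name: each is assigned by the platform annotation to exactly 1 gene that carries a plastid locus tag (ArthCp) and a symbol beginning psa, psb, pet, atp, ndh or rbc. The rule found 43 probe sets for 43 genes, of 22746 gene probe sets on the array. They comprised 5 genes of photosystem I, 15 of photosystem II, 6 of the cytochrome b6f complex, 6 of the ATP synthase, 10 of the NDH complex and rbcL. RefSeq lists 44 such gene symbols in the plastid genome. The one not covered was ndhB, which lies in the inverted repeat and whose probe set is assigned to both copies. A mean log2 signal at or above the 40th percentile of all gene probe sets, a signal of 31.2, was required for testing. Of the 43 genes, 40 passed it, and petD, atpI and ndhF did not.

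Whole seedlings of Col-0 at developmental stage 1.04 were compared after a short gas treatment. The 3 ozone samples had received 500 ppb ozone for 6 h, and the 3 control samples air scrubbed with charcoal and purafill for 6 h. Both groups were grown on 0.8% agar with MS medium and vitamins at 20 °C with 16 h of light and 8 h of darkness, stayed in their plates inside sealed chambers, and were extracted directly afterwards. The groups did not differ in genotype or tissue, and each RNA was hybridised to 1 ATH1 array, a short-oligonucleotide array read in 1 colour. The labels number the samples 1 to 3 in each group without saying what a number stands for, nor whether the samples came from separate cultures. The p-values thus speak only of the scatter among these samples, which may be technical.

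As background, photosystem II splits water, the cytochrome b6f complex passes electrons on and pumps protons, photosystem I reduces ferredoxin, and the ATP synthase uses the proton gradient. The NDH complex returns electrons from ferredoxin into the chain around photosystem I, and Rubisco fixes carbon dioxide. Most plastid genes are transcribed in polycistronic units by a bacterial-type and a phage-type RNA polymerase, and their transcripts are processed and stabilised by nuclear-encoded proteins. Plastid transcripts carry no stable poly(A) tail, and the primer used to label the RNA is not given in the sources used here. No gene or promoter sequences of the plastid genome were used here.

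The signals had nearly the same 2% trimmed mean on each array, and array medians lay between 41.7 and 49.5. The 43 genes made up 1.53%, 1.06% and 0.894% of the summed signal of ozone replicates 1, 2 and 3, and 1.55%, 1.12% and 1.06% of that of control replicates 1, 2 and 3. Replicate 1 was thus the highest array of each group. The arrays numbered 1 stood apart for most plastid genes in both groups, so that the counts below are given with and without them. All values are MAS5 signals on a linear scale. Signals of different probe sets are not levels that can be compared between genes, and the mean signal served only to choose which genes to show.

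The comparison of ozone with control asked which transcripts differed after the fumigation. None of the 40 tested plastid photosynthesis genes passed an adjusted p of 0.05 in limma's moderated test, adjusted by Benjamini and Hochberg's method across the 13648 probe sets tested. In the same fit 28.0% of all tested probe sets passed. At an unadjusted p below 0.05 there was 1 of the 40, psbB. The log2 fold changes, ozone minus control, ran from -0.52 for psbB to 0.59 for atpH, with a median of -0.10. Of the 40, 29 were negative (72.5%), against 61.5% of all tested probe sets, whose median was -0.15. In these whole-seedling samples, fewer cells of a type and less RNA per cell cannot be told apart.

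The medians by complex were -0.16 for the 5 genes of photosystem I, -0.09 for the 15 of photosystem II, -0.20 for the 5 tested of the cytochrome b6f complex, -0.11 for the 5 tested of the ATP synthase and -0.24 for the 9 tested of the NDH complex. The value of rbcL was -0.27. These medians moved with the scaling. After quantile normalization the median of the 40 genes was -0.0042 with 20 negative, and that of all tested probe sets was -0.12. After centring each array on its median the corresponding medians were -0.03, with 25 of the 40 negative, and -0.08. After quantile normalization 3 of these medians changed sign, to 0.054 for photosystem I, 0.015 for photosystem II and 0.091 for the ATP synthase, while no complex changed sign after centring. A single array also decided the sign of the overall median, which was 0.07 without ozone replicate 3 and 0.09 without control replicate 1. In each complex the median was positive when some 1 array was left out and negative when some other was.

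Without a block the tests were less precise for these genes than over all tested probe sets. The median standard error was 0.36 on the log2 scale, against 0.21 over all tested probe sets. The 95% interval of the fold change had a median half-width of 0.83 against 0.49, and it lay within 2-fold in either direction for 20 of the 40 genes (50.0%), against 55.0% of all tested probe sets. For the other 20, among them psaA, psbA, psbC, petA, atpA, ndhJ and rbcL, a change of 2-fold or more in at least one direction was within the interval. A p above the threshold does not show that these genes were the same after ozone.

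The arrays numbered 1 deviated together in ozone and control, while those numbered 2 and 3 could not be told apart as pairs. The fit with the replicate number as a block narrowed the median half-width to 0.30, against 0.35 over all tested probe sets. The median standard error was then 0.13, against 0.15. All 40 intervals lay within 2-fold, against 68.6% of all tested probe sets, so that the order of precision turned with the block. With that block 7 of the 40 genes passed an adjusted p of 0.05 in limma. Lower after ozone were 6, namely psbB, psbM, psbZ, petB, ndhI and ndhJ, which is 6 of 40 where 30.0% of all tested probe sets were lower. Higher was 1, atpH, where 19.1% of all tested probe sets were higher. The calls depended on the scaling: with the block and quantile normalization psbB and atpH passed, and with the block and median centring atpH alone. Without the arrays numbered 1, with 2 arrays a group, the fit called petB lower and no other member, where 20.1% of all tested probe sets were lower; with quantile normalization in addition it called psbB instead, and with median centring none. Without these arrays 35 of the 40 fold changes were negative, with a median of -0.20, against 8295 of 13648 and -0.15 over all tested probe sets. With quantile normalization in addition 30 were negative, with a median of -0.13 in both.

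**Figure D1:**
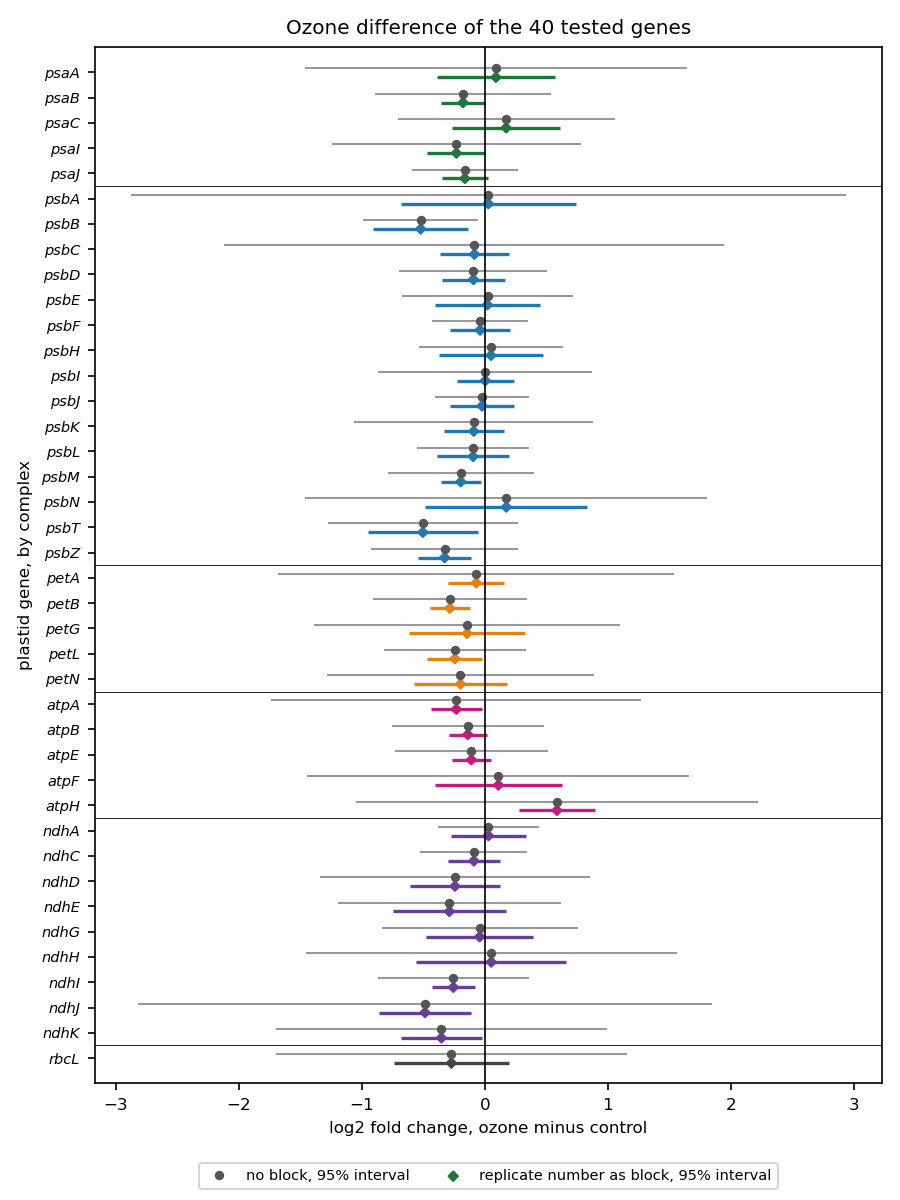
Log2 fold change, ozone minus control, of the 40 tested genes by complex, with 95% intervals; grey points and lines come from the fit without a block, coloured diamonds and lines from the fit with the replicate number as a block. The points coincide and the intervals narrow with the block, most for psbA, psbC and ndhJ.

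Photosystem I was represented by psaA and psaB, which form its reaction centre, by psaC, the iron-sulphur subunit at the ferredoxin side, and by the small membrane subunits psaI and psaJ. The signal of psaB (ArthCp021) was 2815, 1739 and 1538 in ozone replicates 1, 2 and 3, against 3279, 1816 and 1829 in control replicates 1, 2 and 3. Within each number the ozone array was the lower one, and replicate 1 was the highest array of each group. On the log2 scale the difference was -0.18 ± 0.31 (SE; adjusted p = 0.707 in limma). The signal of psaA (ArthCp022) was 416, 1224 and 865 in ozone replicates 1, 2 and 3, against 233, 1264 and 1239.7 in control replicates 1, 2 and 3. Here replicate 1 was the lowest array of each group, and the groups overlapped. The change of psaA was, on the log2 scale, 0.09 ± 0.67 (SE; adjusted p = 0.936 in limma), with a 95% interval of -1.47 to 1.64. The other 3 genes had log2 fold changes of 0.17 (psaC), -0.23 (psaI) and -0.16 (psaJ), and none of the 5 was called in the fits with the block or without the arrays numbered 1.

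In photosystem II, psbB encodes the inner antenna protein CP47. It was the one gene of the 40 whose ozone and control arrays did not overlap, where 45.7% of all tested probe sets did not overlap in one direction or the other. The signal of psbB (ArthCp049) was 188, 226 and 178 in ozone replicates 1, 2 and 3, against 234, 261 and 365 in control replicates 1, 2 and 3. Every ozone array lay below every control array. The log2 fold change was -0.52 ± 0.20 (SE; adjusted p = 0.0917 in limma), and with the replicate block the adjusted p was 0.0302. Its neighbour psbT, a small subunit, had 167, 312 and 204 in ozone replicates 1, 2 and 3, against 202, 327 and 458 in control replicates 1, 2 and 3, with the lowest array of each group numbered 1 and the groups overlapping. Its log2 fold change was -0.50 ± 0.33 (SE; adjusted p = 0.297 in limma), and 0.0605 was its adjusted p with the block.

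The small subunit gene psbM (ArthCp016) had the highest mean signal of the photosystem II probe sets and psbI, another small subunit, the largest p. The signal of psbM was 2746, 1811 and 1701 in ozone replicates 1, 2 and 3, against 3102, 2064 and 1985 in control replicates 1, 2 and 3. The ozone array was lower within each number, and both arrays numbered 1 lay above the other 4. Its log2 fold change came to -0.20 ± 0.26 (SE; adjusted p = 0.606 in limma), with an adjusted p of 0.0487 with the block. The signal of psbI (ArthCp006) was 1203, 800.2 and 519 in ozone replicates 1, 2 and 3, against 1268, 696 and 562 in control replicates 1, 2 and 3. Ozone was higher in pair 2 and lower in the other two, and the groups overlapped. The log2 fold change of psbI was 0.0032 ± 0.38 (SE; adjusted p = 0.996 in limma), with a 95% interval of -0.87 to 0.87. Also called with the block was psbZ, a small subunit needed for stable antenna assembly, with 1208, 839 and 654 in ozone replicates 1, 2 and 3, against 1374, 1056 and 903 in control replicates 1, 2 and 3. Its ozone array was lower in each pair, at a log2 fold change of -0.33 and an adjusted p of 0.0188 in limma with the block.

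The reaction centre proteins D1 and D2 are encoded by psbA and psbD, and the inner antenna protein CP43 by psbC. The log2 fold changes were 0.03 for psbA, -0.09 for psbD and -0.09 for psbC. The interval for psbA was the widest of the 40, -2.88 to 2.94 without a block and -0.68 to 0.74 with it. The cluster psbE, psbF, psbL and psbJ, of which psbE and psbF encode the subunits of cytochrome b559, had log2 fold changes of 0.02, -0.04, -0.10 and -0.02. The remaining values were 0.05 for psbH and -0.09 for psbK, both small subunits. The value was 0.17 for psbN, whose product in tobacco is an assembly factor and no subunit.

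In the cytochrome b6f complex, petB encodes cytochrome b6 and petA cytochrome f. The signal of petB (ArthCp053) was 2709, 1732 and 1669.7 in ozone replicates 1, 2 and 3, against 3329, 2039 and 2087 in control replicates 1, 2 and 3. The ozone array was lower in each pair, as it was for 45.4% of all tested probe sets. Ozone minus control, the log2 difference was -0.28 ± 0.27 (SE; adjusted p = 0.468 in limma). The adjusted p was 0.0106 with the replicate block and 0.0299 without the arrays numbered 1, where the log2 fold change was -0.28. The signal of petA (ArthCp035) was 1568, 397 and 332 in ozone replicates 1, 2 and 3, against 1531, 433 and 361 in control replicates 1, 2 and 3. Both arrays numbered 1 were several-fold above the other 4, and the groups overlapped. The change of petA was, on the log2 scale, -0.07 ± 0.70 (SE; adjusted p = 0.953 in limma). The small subunits petG, petL and petN had log2 fold changes of -0.14, -0.24 and -0.20, so that all 5 tested genes of the complex were negative, none of them called without the block. After median centring 4 of the 5 were negative. The gene petD, for subunit IV, was below the filter, with signals of 50.6, 24.2 and 20.6 in ozone replicates 1, 2 and 3, against 31.6, 22.4 and 13.3 in control replicates 1, 2 and 3.

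Of the 5 tested ATP synthase genes 3 were negative as deposited and after median centring, and 1 after quantile normalization. The head subunits alpha and beta and the stalk subunit epsilon are encoded by atpA, atpB and atpE, and the membrane part by atpF, atpH and atpI. The signal of atpB (ArthCp029) was 3708, 2375 and 2264 in ozone replicates 1, 2 and 3, against 4029, 2599.6 and 2542 in control replicates 1, 2 and 3, lower after ozone in each pair. On the log2 scale the difference was -0.14 ± 0.27 (SE; adjusted p = 0.734 in limma), and those of atpA and atpE were -0.23 and -0.11. The signal of atpF (ArthCp008) was 650.1, 415 and 114 in ozone replicates 1, 2 and 3, against 604, 233 and 174 in control replicates 1, 2 and 3, with ozone above control in pairs 1 and 2 and below it in pair 3. Its log2 fold change was 0.11 ± 0.67 (SE; adjusted p = 0.922 in limma).

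The gene atpH (ArthCp009), which encodes the ring-forming subunit c, was the one member of the 40 that was higher in all 3 pairs. Of all 13648 tested probe sets 3635 were. Its signal was 502, 235 and 104 in ozone replicates 1, 2 and 3, against 392, 134 and 69.3 in control replicates 1, 2 and 3. The 3 arrays of each group were far apart and the groups overlapped, while each ozone array exceeded the control array of the same number. Numbers 2 and 3 were not told apart as pairs, and ozone replicate 3 (104) lay below control replicate 2 (134). The blocked values below rest on the numbering as labelled. The log2 fold change was 0.59 ± 0.71 (SE; adjusted p = 0.574 in limma) without a block, with a 95% interval of -1.05 to 2.22. With the block the interval was 0.28 to 0.89 and the adjusted p 0.00659. Without the arrays numbered 1 it was 0.70 with an adjusted p of 0.249. The gene atpI, next to atpH, was below the filter, with 59.9, 33.1 and 17.7 in ozone replicates 1, 2 and 3, against 32.7, 20.7 and 26.7 in control replicates 1, 2 and 3.

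Of the 9 tested genes of the NDH complex 7 were negative. The signal of ndhI (ArthCp078), an iron-sulphur subunit, was 2435, 1543 and 1421 in ozone replicates 1, 2 and 3, against 2725, 1958 and 1705 in control replicates 1, 2 and 3. The ozone array was lower in each pair. The log2 fold change was -0.26 ± 0.27 (SE; adjusted p = 0.508 in limma), and the adjusted p with the block was 0.0235. The signal of ndhH (ArthCp080), whose probe set had the largest p of the complex, was 46.6, 118 and 90.0 in ozone replicates 1, 2 and 3, against 25.6, 110.0 and 158 in control replicates 1, 2 and 3. Replicate 1 was the lowest array of each group, and the groups overlapped. The log2 fold change of ndhH was 0.05 ± 0.65 (SE; adjusted p = 0.962 in limma). For ndhJ, also called with the block, the signal was 481, 72.3 and 45.6 in ozone replicates 1, 2 and 3, against 613, 82.3 and 86.5 in control replicates 1, 2 and 3, at a log2 fold change of -0.49 ± 1.01 (SE; adjusted p = 0.753 in limma) without it and an adjusted p of 0.0355 with it. Lower in ozone within each pair, it had both arrays numbered 1 far above the other 4.

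The membrane subunits ndhA, ndhC, ndhD, ndhE and ndhG had log2 fold changes of 0.03, -0.09, -0.24, -0.29 and -0.04, and ndhK was at -0.35. Below the filter, ndhF had 26.5, 15.7 and 10.5 in ozone replicates 1, 2 and 3, against 11.1, 18.7 and 19.0 in control replicates 1, 2 and 3. The shared probe set of the 2 ndhB copies, no member, had 41.7, 23.3 and 36.3 in ozone replicates 1, 2 and 3, against 57.0, 29.4 and 28.4 in control replicates 1, 2 and 3. The signal of rbcL (ArthCp030), the large subunit of Rubisco, was 145, 64.1 and 38.7 in ozone replicates 1, 2 and 3, against 206, 49.7 and 61.9 in control replicates 1, 2 and 3. Ozone was lower in pairs 1 and 3 and higher in pair 2. The change of rbcL was, on the log2 scale, -0.27 ± 0.62 (SE; adjusted p = 0.774 in limma), with a 95% interval of -1.70 to 1.15.

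The direction of the ozone difference was not even over the 3 pairs. Of the 40 genes 24 were lower after ozone in pair 1, 27 in pair 2 and 38 in pair 3. The median log2 differences, ozone minus control, were -0.10, -0.10 and -0.33 in pairs 1, 2 and 3, against -0.16, -0.19 and -0.10 over all tested probe sets. In pair 3 every tested gene of photosystem I, photosystem II and the NDH complex was lower after ozone. The genes lower in all 3 pairs were 16 of 40, against 45.4% of all tested probe sets. Ozone replicate 3 was the lowest of the ozone arrays in summed signal of the 43 genes. It lay below ozone replicate 2 for 37 of the 40 genes, while control replicate 3 lay below control replicate 2 for 21.

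**Figure D2:**
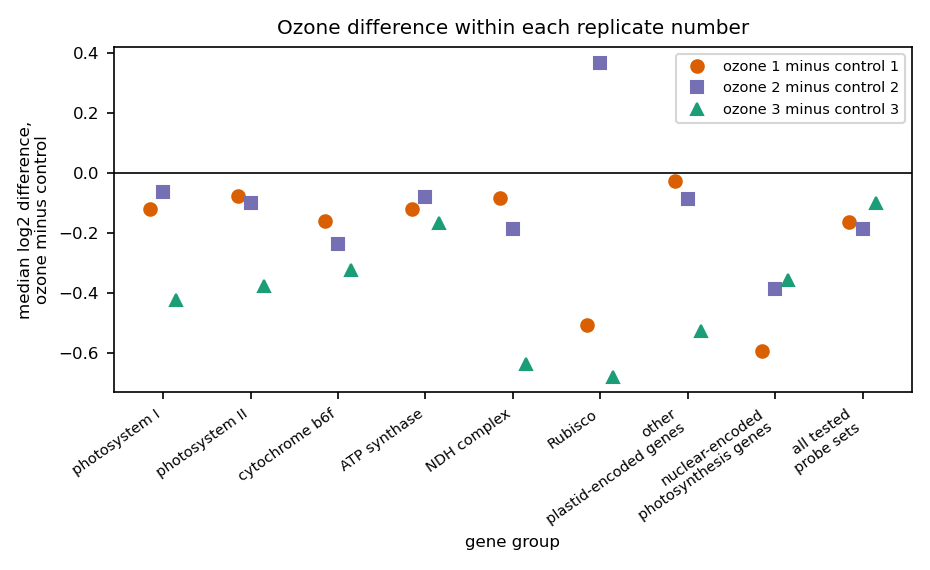
Median log2 difference, ozone minus control, within each replicate number for the genes of each complex, for other plastid-encoded genes, for the nuclear-encoded photosynthesis genes and for all 13648 tested probe sets. The points of pair 3 lie lowest for each plastid complex and for the other plastid-encoded genes, at -0.63 for the NDH complex, and highest for all tested probe sets, at -0.10.

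The largest differences among the plastid photosynthesis genes separated the arrays numbered 1 from the other 4, in both groups. For 30 of the 40 genes (75.0%) both arrays numbered 1 lay above all other arrays, against 10.3% of all tested probe sets. For 5 (12.5%), namely psaA, ndhH, psbE, psbT and psbL, both lay below, against 16.9%. The difference of replicate 1 from the mean of replicates 2 and 3 had a median of 0.75 in ozone and 0.69 in control on the log2 scale, against -0.03 and -0.02 over all tested probe sets. In both groups it exceeded 2-fold upward for 14 genes and downward for 2, 16 of the 40 in all, against 3.14% of all tested probe sets. Of the 14 tested nuclear-encoded photosynthesis genes, 42.9% had both arrays numbered 1 above all others. Their median difference was 0.34 in ozone and 0.64 in control, and 0 exceeded 2-fold in both groups. After quantile normalization the medians were 0.51 in ozone and 0.38 in control for the 40 genes. For the nuclear-encoded genes they were then 0.11 and 0.11. The direction of small deviations moved with the scaling. Those of ozone and control were both positive for 30 genes and both negative for 6 as deposited, for 28 and 11 after quantile normalization, and for 30 and 3 after median centring.

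The genes named next were chosen for the size of this difference. The signal of psbA (ArthCp002) was 1168, 170.0 and 66.9 in ozone replicates 1, 2 and 3, against 1337, 75.1 and 125 in control replicates 1, 2 and 3. Both arrays numbered 1 stood far above the other 4, which did not exceed 170.0. Replicate 1 was 11.0-fold above the geometric mean of replicates 2 and 3 in ozone and 13.8-fold in control. For ndhJ the ratios were 8.37 in ozone and 7.27 in control. The signal of psbC (ArthCp018) was 1951, 515 and 235 in ozone replicates 1, 2 and 3, against 2066, 448 and 305 in control replicates 1, 2 and 3, a ratio of 5.60 in ozone and 5.59 in control. In the other direction psaA was at 0.404 in ozone and 0.186 in control, and ndhH at 0.452 in ozone and 0.194 in control. The deviations in ozone and in control followed each other across the 40 genes, with Pearson's r = 0.96, against 0.75 over all tested probe sets. That r is across genes on the same 6 arrays, and genes are not independent replicates.

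**Figure D3:**
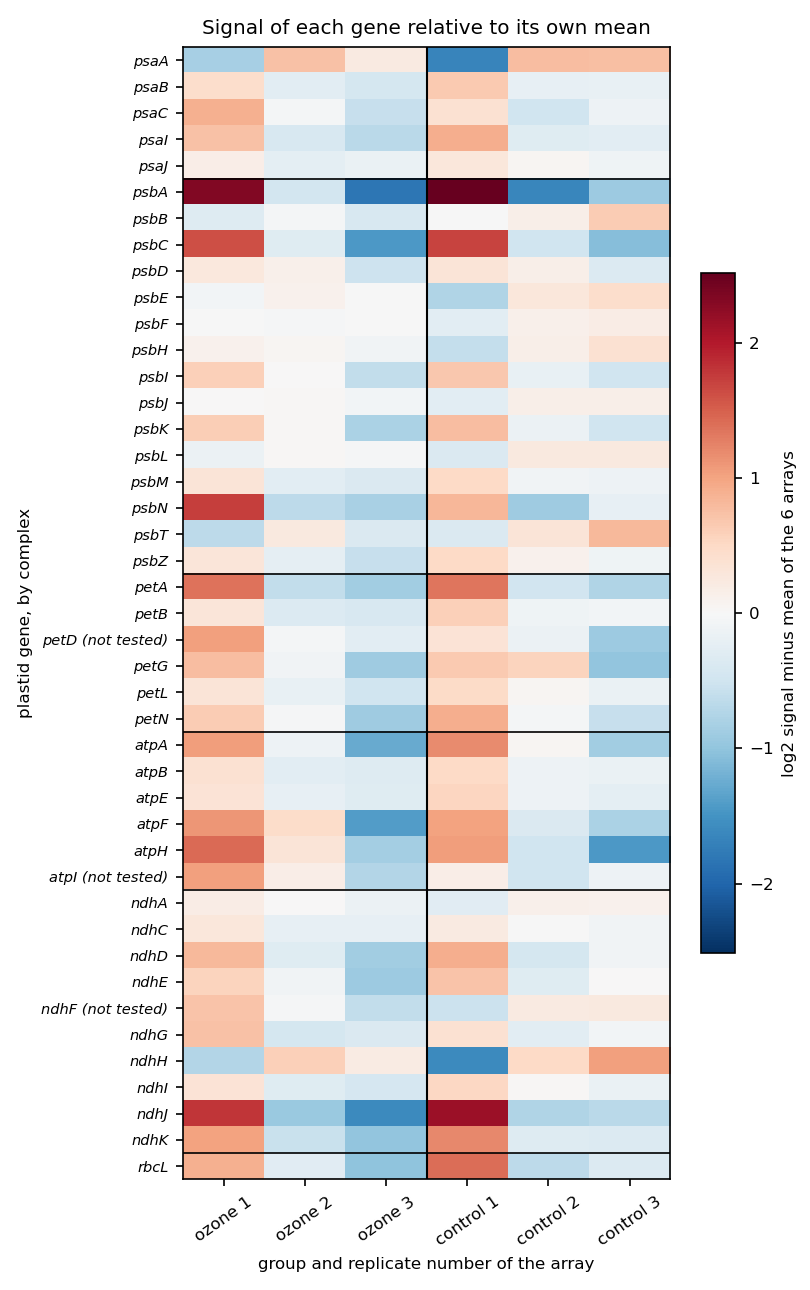
Log2 signal of each of the 43 genes minus its own mean over the 6 arrays, by complex, with the ozone arrays left and the control arrays right of the line. Most genes are high in both arrays numbered 1, psbA most, while psaA and ndhH are low in both.

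The difference was shared unevenly by neighbouring genes in some transcription units and nearly evenly in others. For atpB and atpE it was 0.68 and 0.61 in ozone, and 0.65 and 0.72 in control. For psbK and psbI it was 1.00 and 0.90 in ozone, and 1.11 and 1.02 in control. In the psaA-psaB unit it was -1.31 in ozone and -2.43 in control for psaA, but 0.78 in ozone and 0.85 in control for psaB. In the ndhC-ndhK-ndhJ unit it was 0.48 in ozone and 0.27 in control for ndhC, 1.78 in ozone and 1.56 in control for ndhK, and 3.07 in ozone and 2.86 in control for ndhJ. Between psbD and psbZ, at 0.46 and 0.71 in ozone and 0.43 and 0.49 in control, lay psbC, at 2.49 in ozone and 2.48 in control. In the psbB unit psbT was low in the arrays numbered 1 in both groups, at -0.59 in ozone and -0.94 in control, and petB high, at 0.67 in ozone and 0.69 in control. The cluster psbE, psbF, psbL and psbJ lay between -0.14 and 0.02 in ozone and between -1.12 and -0.41 in control. The ndhH unit ran from -1.15 in ozone and -2.36 in control for ndhH to 1.42 in ozone and 1.18 in control for ndhD.

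**Figure D4:**
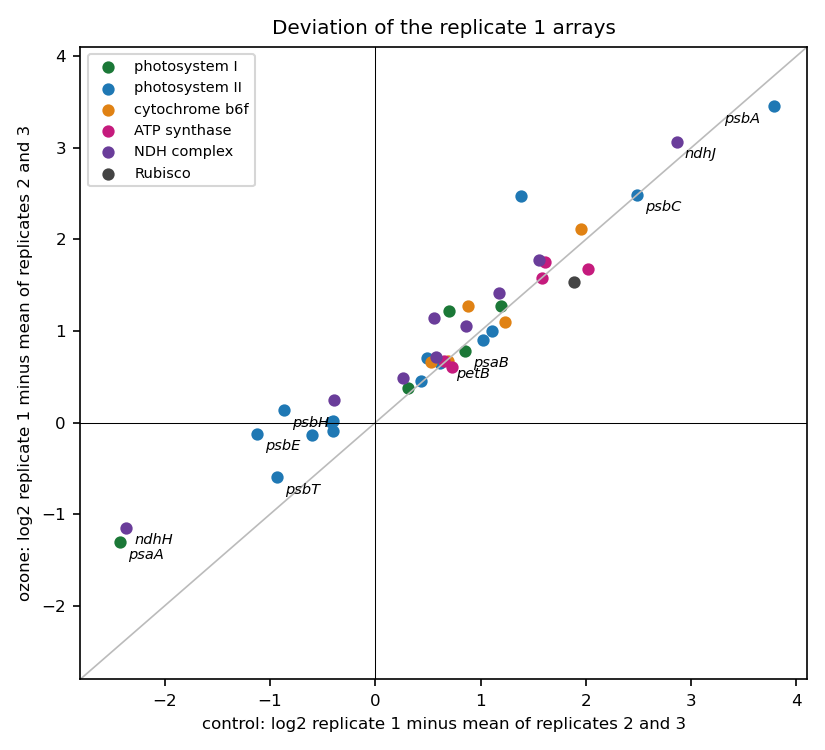
Log2 difference of replicate 1 from the mean of replicates 2 and 3, in control on the horizontal and in ozone on the vertical axis, for the 40 tested genes coloured by complex; the grey line marks equal values. The genes run from psaA and ndhH at the lower left, above the line, to psbA at the upper right.

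Measures of RNA quality and of ribosomal RNA moved with the same arrays. The ratio of the actin 3′ to 5′ control probe sets was 6.51, 4.85 and 1.17 in ozone replicates 1, 2 and 3, against 5.29, 1.34 and 1.198 in control replicates 1, 2 and 3. That of GAPDH was 1.48, 1.02 and 1.00 in ozone replicates 1, 2 and 3, against 2.03, 1.12 and 1.198 in control replicates 1, 2 and 3. Replicate 1 had the highest ratio of each group for both, and ozone replicate 2 was also high for this actin pair. A second actin pair gave 1.72, 1.16 and 1.12 in ozone replicates 1, 2 and 3, against 2.96, 1.24 and 1.41 in control replicates 1, 2 and 3, where ozone replicate 2 lay close to replicate 3. The ratio of ubiquitin was 2.1998, 1.44 and 1.49 in ozone replicates 1, 2 and 3, against 2.79, 1.898 and 2.26 in control replicates 1, 2 and 3, and a second ubiquitin pair was likewise highest in replicate 1 of each group. A second pair of GAPDH probe sets gave ratios of 0.869 to 0.989 over the 6 arrays, with no such step at replicate 1 of the control group. The 25S ribosomal RNA probe set gave 27.9, 6.6 and 9.4 in ozone replicates 1, 2 and 3, against 14.4, 6.3 and 4.6 in control replicates 1, 2 and 3, again highest in replicate 1. Its signals were low, below the filter signal of 31.2 on each array. The part of these measures in the plastid values was not tested.

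The other plastid-encoded genes, for ribosomal proteins, RNA polymerase subunits and others, gave a similar account. Of 26 single-gene probe sets 24 were tested, none was called in limma, 1 had an unadjusted p below 0.05, 21 were negative, and the median log2 fold change was -0.20. With the replicate block 6 were lower (30.0% of all tested probe sets), with quantile normalization in addition 4 and with median centring in addition 0. Without the arrays numbered 1 the count was 5 (20.1% of all tested probe sets), with quantile normalization 3 and with centring 2. Their replicate 1 arrays lay above the mean of replicates 2 and 3 by a median of 0.80 in ozone and 0.65 in control. Of 18 probe sets with mitochondrial gene symbols 3 were tested and none was called, with none at an unadjusted p below 0.05.

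Nuclear genes for the same complexes came from lists of subunits and partners. Most of the listed genes had no probe set assigned to them alone in the annotation used, so they are not covered. The 14 tested all had negative log2 fold changes, and 4 fell at an adjusted p of 0.05 in limma. Over all tested probe sets 61.5% were negative, and 2039 of 13648 were called lower. Tested were 2 of 12 listed genes for photosystem I, 2 of 11 for photosystem II and 2 of 4 for the ATP synthase. For the cytochrome b6f complex and electron carriers it was 1 of 8, and for Rubisco with its activase 1 of 5. None of these was called as deposited in the fit on all 6 arrays without a block. The 2 of smallest p in each list were -0.46 for PSAN and -0.20 for PSAE1, -0.55 for PSBY and -0.37 for PSBW, -0.34 for PETM, -0.40 for ATPC2 and -0.42 for ATPC1, and -0.39 for RCA. After quantile normalization 13 of the 14 were negative and 5 were called lower, and after median centring 14 and 3. Of all 13648 tested probe sets 2132 were called lower after quantile normalization and 1601 after median centring. With the block 12 of the 14 were lower (30.0% of all tested probe sets), with quantile normalization in addition 6 and with centring in addition 10. Without the arrays numbered 1 the count was 8 (20.1% of all tested probe sets), with quantile normalization 4 and with centring 5. Of the 20 listed light-harvesting genes 3 were tested, and LHCB4.2, an antenna protein of photosystem II, fell. Its signal was 1205, 805 and 1146 in ozone replicates 1, 2 and 3, against 2420.4, 1559.8 and 1699.8 in control replicates 1, 2 and 3. The groups did not overlap. The log2 fold change of LHCB4.2 was -0.84 ± 0.24 (SE; adjusted p = 0.0312 in limma), but the adjusted p was 0.0800 after median centring and 0.0591 without the filter. It was 0.114 without ozone replicate 2, 0.0550 without ozone replicate 3, 0.0550 without control replicate 1 and 0.0727 without control replicate 3. The second by p, LHCB4.3, was at -0.25. The list for plastid transcription had 1 probe set, RPOTMP, which was below the filter.

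The NDH complex is built from plastid-encoded and nuclear-encoded subunits. NDHN belongs to its stroma-exposed part, NDHS to its ferredoxin-binding site, and NDHL to the membrane side. Of 13 listed nuclear genes 3 were tested, and all 3 fell. The signal of NDHN was 260.2, 169.8 and 263 in ozone replicates 1, 2 and 3, against 602, 502 and 513 in control replicates 1, 2 and 3, and that of NDHS 193, 161 and 174 in ozone replicates 1, 2 and 3, against 531, 333 and 331 in control replicates 1, 2 and 3. In both the highest ozone array lay below the lowest control array. The log2 fold changes were -1.25 ± 0.21 (SE; adjusted p = 0.00397 in limma) for NDHN and -1.15 ± 0.21 (SE; adjusted p = 0.00666 in limma) for NDHS. The signal of NDHL was 399.7, 209.8 and 268 in ozone replicates 1, 2 and 3, against 879, 514 and 570.0 in control replicates 1, 2 and 3, without overlap. Its log2 fold change was -1.17 ± 0.29 (SE; adjusted p = 0.0191 in limma), and the adjusted p was 0.0741 without ozone replicate 2 and 0.0537 without ozone replicate 3. None of the 9 tested plastid ndh genes was called in the same fit, with 95% intervals reaching from -0.38 to 0.44 for ndhA, the narrowest, to -2.82 to 1.85 for ndhJ, the widest. Whether the nuclear and the plastid genes differed in their response was not tested.

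**Figure D5:**
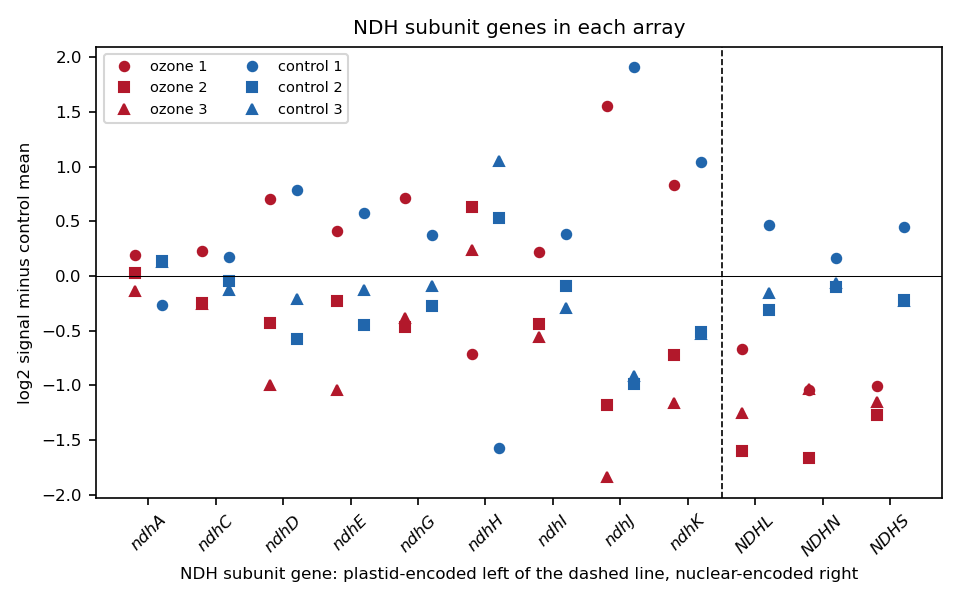
Log2 signal minus the mean of the control arrays for the 9 tested plastid-encoded ndh genes, left of the dashed line, and the 3 tested nuclear-encoded NDH genes, right of it, in each ozone array (red) and control array (blue). The groups overlap in each plastid-encoded gene and do not overlap in NDHL, NDHN and NDHS.

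Markers of cell types the whole seedlings hold were set beside these values. Of 4 root markers, all tested, 2 fell, the root hair expansin EXPA7 at -0.94 (limma adjusted p = 0.0101) and AT4G26010 at -2.18 (limma adjusted p = 0.00622), while PYK10 and EXPA18 were at -0.33 and -0.57. Without control replicate 3 the adjusted p of EXPA7 was 0.0506. EXPA7 had signals of 28.2, 21.5 and 22.3 in ozone replicates 1, 2 and 3, against 44.3, 45.3 and 47.6 in control. AT4G26010 had 33.0, 9.8 and 16.1 in ozone replicates 1, 2 and 3, against 73.7, 83.0 and 79.3 in control. These ozone signals, apart from the 33.0, lay below the filter signal of 31.2, so that the sizes of both falls are uncertain. With the filter at the 60th percentile 0 root markers were called lower, but EXPA7, EXPA18 and AT4G26010 lay below that filter and were not tested. That count thus concerns PYK10 alone. In limma PYK10 was also called lower with the block (adjusted p = 0.00754) and without the arrays numbered 1 (0.0326), which made 3 of 4 root markers. Of all tested probe sets 30.0% and 20.1% were lower in these fits. With quantile normalization added, 2 of the 4 were called lower in either fit. With median centring added it was 3 with the block and 2 without the arrays numbered 1. The summed signal of the 4 was 1873 to 2511 in ozone and 2318 to 3514 in control. Most of it came from PYK10, at 1806 to 2420 in ozone and 2154 to 3350 in control. In EXPA7, EXPA18 and AT4G26010 each ozone array lay below each control array. Of all tested probe sets 45.7% did not overlap in one direction or the other. The 2 of 3 guard cell markers with a probe set were not called without a block, FMA at -0.34 and AT1G22690 at -0.44, with sums of 224 to 378 in ozone and 384 to 432 in control. With the block AT1G22690 was lower (limma adjusted p = 0.0376). Without the arrays numbered 1 both were, with limma adjusted p-values of 0.041 for FMA and 0.0469 for AT1G22690. With median centring added, neither was called in either fit. The mesophyll list was represented by RCA alone, at 1603 to 2069 in ozone and 2076 to 3173 in control, and was lower with the block (limma adjusted p = 0.00783) but not without the arrays numbered 1 (0.0507). With the block and quantile normalization RCA was not called lower. The 3 reference genes PEX4, AT4G34270 and AT2G28390 were not called, with sums of 402 to 455 in ozone and 402 to 464 in control. No marker with a probe set was at 0, and neither phloem marker had one. The part of cell composition in the plastid values was not tested.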

How the data were processed

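Total RNA of 6 seedling samples, 3 ozone and 3 control, was hybridised to ATH1 arrays. The deposited values are intensity signals made with MAS5, per the submitters' processing notes; no source used here gives its version or settings. Members and gene lists were chosen with earlier results of these data known. The 64 control probe sets were left out, 95 zeros took the lowest positive signal found on the same array, and log2 was taken with nothing added. Probe sets under the 40th percentile of mean log2 signal were not tested, leaving 13648. The fit was limma (version 3.58.1, under R 4.3.3; lmFit, then eBayes with a trend; two-sided) on all 6 arrays, with Benjamini-Hochberg adjustment and a threshold of 0.05, and was tested on simulated data. The number of arrays limits the precision.

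All members were named. Values in every array were given for members past the threshold and for each complex's member of highest mean signal and of largest p; psbB, psbT, psbZ, atpH, ndhJ, psbA, psbC, ndhB, NDHL and the genes below the filter were added after their values were seen. From each partner list the 2 genes of smallest p were named, and none went the other way. Gene names came from the platform annotation, in which 13513 probe sets have 1 symbol, 503 several and 8794 none, and gene order from RefSeq (TAIR10.1). Mitochondrial genes were matched by symbol.

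Whether replicate numbers pair the arrays was checked by the correlation, across tested probe sets, of same-numbered arrays' deviations from their group means. It was 0.75, 0.37 and 0.44 for numbers 1, 2 and 3, each above 0.1, so the blocked fit is given beside the unblocked one. Numbers 2 and 3 were not told apart by it, since ozone 2 with control 3 gave 0.37 and ozone 3 with control 2 gave 0.41. Deviations from a group mean cancel in sum, so a deviation shared by the arrays numbered 1 raises all these values. The values for numbers 2 and 3 thus do not show pairing. The alternatives comprised median centring, quantile normalization, 16 or 64 added, no filter or the 60th percentile, no trend, a robust fit, the replicate block, no shared probe sets, and leaving out each array or both arrays numbered 1.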

Additional observations from a re-analysis of the deposited data

How the results depend on the processing

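The count of plastid photosynthesis genes called without a block was 0 in each direction under the alternatives run on all 6 arrays and when any 1 array was left out. With the replicate block it was 6 lower and 1 higher, with the block and quantile normalization 1 lower and 1 higher, and with the block and median centring 1 higher. Without both arrays numbered 1 it was 1 lower, as it was with quantile normalization in addition, an alternative chosen after seeing the data like that with centring. Over all tested probe sets 4097 were lower and 2602 higher with the replicate block, 3815 lower with the block and quantile normalization, and 3384 lower and 2801 higher with the block and median centring. Leaving out 1 array, or both arrays numbered 1, gave 987 to 2742 lower, with 987 without control replicate 3, 991 without ozone replicate 2 and 1072 without control replicate 2. After quantile normalization, with or without the replicate block, the median log2 fold change was 0.054 for photosystem I, 0.015 for photosystem II and 0.091 for the ATP synthase. That of photosystem I was -0.29 to 0.10 when 1 array was left out. The median of all tested probe sets was -0.080 after median centring, with or without the block, -0.085 with 64 added, and -0.091 without the arrays numbered 1 after centring. The causes were not tested. The replicate block ended none of the calls named from the fit on all 6 arrays without a block. The signals carry no read depth, and 3 arrays a group limit what could be detected.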
